A study of Mus musculus with 47 samples.

Results

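A set of 8 genes that mark the macrophages of the brain's borders were followed in cortical RNA from mice fed control chow or chow with PLX5622. These were Mrc1, Cd163, Lyve1, Stab1, F13a1, Pf4, Ms4a7 and Cbr2, chosen by symbol and matched to the Ensembl identifiers of the deposited tables, with no filter on expression. All 8 were listed in both tables, among 54532 genes with counts and 54281 genes with TPM values (a level scaled by transcript length and library total). The 47 male C57BL/6J mice were about 3 months old at harvest, and 23 had received control chow and 24 chow with PLX5622 at 1200 ppm for 10 days. Cortices were collected every 4 h from ZT2 to ZT22 (Zeitgeber time, where lights go on at ZT0 and off at ZT12), with 4 mice per group and 3 in the control group at ZT14. All mice were perfused with ice-cold PBS before the brain was taken, and 1 library was made from the cortex of each mouse. Neither diet group carried a transgene.

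Border macrophages sit in the perivascular spaces, the meninges and the choroid plexus, outside the brain tissue that microglia occupy. They take up proteins, hyaluronan, haemoglobin complexes and debris from the fluid around vessels through scavenger and lectin receptors. As microglia do, they carry CSF1R, the receptor of the growth factors CSF1 and IL-34, which is the kinase that PLX5622 blocks. A dissected cortex holds its vessels and part of its pia, so their transcripts are present but scarce beside those of neurons and glia. In bulk tissue, fewer cells of a type and less RNA per cell cannot be told apart.

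The libraries held 16597987 to 27626161 counts in genes, and the medians were 18314954 for control and 21476967.5 for PLX5622 mice. The 8 genes together took 417 to 843 of these reads in control libraries and 75 to 209 in PLX5622 libraries. Values are given as counts or as CPM (counts scaled to a library total of 1000000), and diets were compared with the quasi-likelihood test of edgeR across all 37182 genes with at least 1 count. An adjusted p under 0.05 (Benjamini-Hochberg over all genes tested) was the threshold.

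The genes lie on 8 chromosomes of GRCm38. Mrc1 spans chr2:14229392-14332057 on the plus strand and holds the microRNA gene Mir511, and Cd163 spans chr6:124304656-124330527 on the plus strand. Lyve1 (chr7:110850607-110863239), Stab1 (chr14:31139013-31168641), F13a1 (chr13:36867178-37050244), Ms4a7 (chr19:11321039-11336146) and Cbr2 (chr11:120729489-120732114) lie on the minus strand, and Pf4 on the plus strand at chr5:90772435-90773383. The annotated Stab1 overlaps Nt5dc2, and F13a1 overlaps Gm30489 and Gm49144. The strand setting of the counting is not given in the sources used here, so reads of these neighbours may be shared.

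RefSeq promoter windows (GRCm38.p6) were found for 7 of the 8 genes, with 2 windows each for F13a1 and Ms4a7. Their bases before the start are shown for Cd163 and for 4 genes that hold a 7-base core of the sites bound by PU.1. PU.1 is the transcription factor of macrophages and microglia. Cd163 kept the largest share of its counts and holds none of the motifs searched. Ms4a7, which is not shown, holds none either and kept 8.54% of its control mean. Stab1 lacks the PU.1 core and kept 18.3%. A relation of motifs to the share lost was not tested. Each run reads 5′ to 3′ along the gene, ends at the base before the start of transcription, and has the core in capitals (GAGGAAG, or CTTCCTC where it lies on the opposite strand). They cover chr2:14229164-14229413 for Mrc1, chr13:37050245-37050494 for F13a1, chr5:90772185-90772434 for Pf4, chr11:120732022-120732271 for Cbr2 and chr6:124304401-124304650 for Cd163.
Mrc1: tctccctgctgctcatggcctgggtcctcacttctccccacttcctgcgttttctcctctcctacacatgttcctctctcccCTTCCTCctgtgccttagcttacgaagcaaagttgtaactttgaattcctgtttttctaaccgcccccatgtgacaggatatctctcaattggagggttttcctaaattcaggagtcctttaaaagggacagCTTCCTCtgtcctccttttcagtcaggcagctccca
F13a1: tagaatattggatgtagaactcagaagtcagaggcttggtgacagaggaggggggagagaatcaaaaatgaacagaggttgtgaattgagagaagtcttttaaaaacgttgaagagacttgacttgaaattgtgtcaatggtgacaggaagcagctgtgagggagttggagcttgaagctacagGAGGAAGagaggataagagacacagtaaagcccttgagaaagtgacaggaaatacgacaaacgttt
Pf4: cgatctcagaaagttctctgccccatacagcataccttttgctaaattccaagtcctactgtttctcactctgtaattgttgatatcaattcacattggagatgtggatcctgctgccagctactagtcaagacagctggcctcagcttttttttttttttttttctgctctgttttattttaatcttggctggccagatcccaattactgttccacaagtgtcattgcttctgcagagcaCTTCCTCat
Cbr2: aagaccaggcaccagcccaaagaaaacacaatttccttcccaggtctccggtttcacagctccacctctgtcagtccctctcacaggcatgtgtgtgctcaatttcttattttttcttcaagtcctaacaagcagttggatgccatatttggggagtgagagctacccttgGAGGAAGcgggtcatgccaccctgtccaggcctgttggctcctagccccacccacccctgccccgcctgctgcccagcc
Cd163: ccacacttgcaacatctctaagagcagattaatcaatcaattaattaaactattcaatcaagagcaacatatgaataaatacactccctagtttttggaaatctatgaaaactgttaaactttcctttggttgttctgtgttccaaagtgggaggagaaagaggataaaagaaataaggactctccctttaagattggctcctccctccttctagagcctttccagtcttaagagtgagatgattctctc
In the windows of 300 bases, which also hold the first bases of the transcript, GAGGAAG or its complement was present in 4 of the 7 genes (5 of 9 windows), against 13.6% of all 32851 windows. Its first base was at -168 and -36 from the start in Mrc1, at -66 and 17 in the first F13a1 window, at 14 in the second, at -9 in Pf4 and at -79 in Cbr2. The MAF element TGCTGA, searched on both strands, was present in Cbr2 and Stab1 and in 19.5% of all windows. The AP-1 site TGACTCA (5.20% of all windows) and the E-box CACGTG of the clock activators (7.15%) were in none of the 9 windows. The motifs did not overlap each other in these windows, and a match is a description of the letters, not of a bound site.

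All 8 genes were called lower in PLX5622 mice, where 2.22% of all genes tested were called lower and 0.707% higher. The median of their log2 fold changes was -2.90, against 0.02 over all genes. In 4 of them (Mrc1, Stab1, F13a1 and Pf4) the highest PLX5622 library lay under the lowest control library, which held for 0.428% of all genes. Their losses were far from equal. Mrc1 kept 4.32% of its mean control CPM and Cd163 kept 51.5%.

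**Figure D1:**
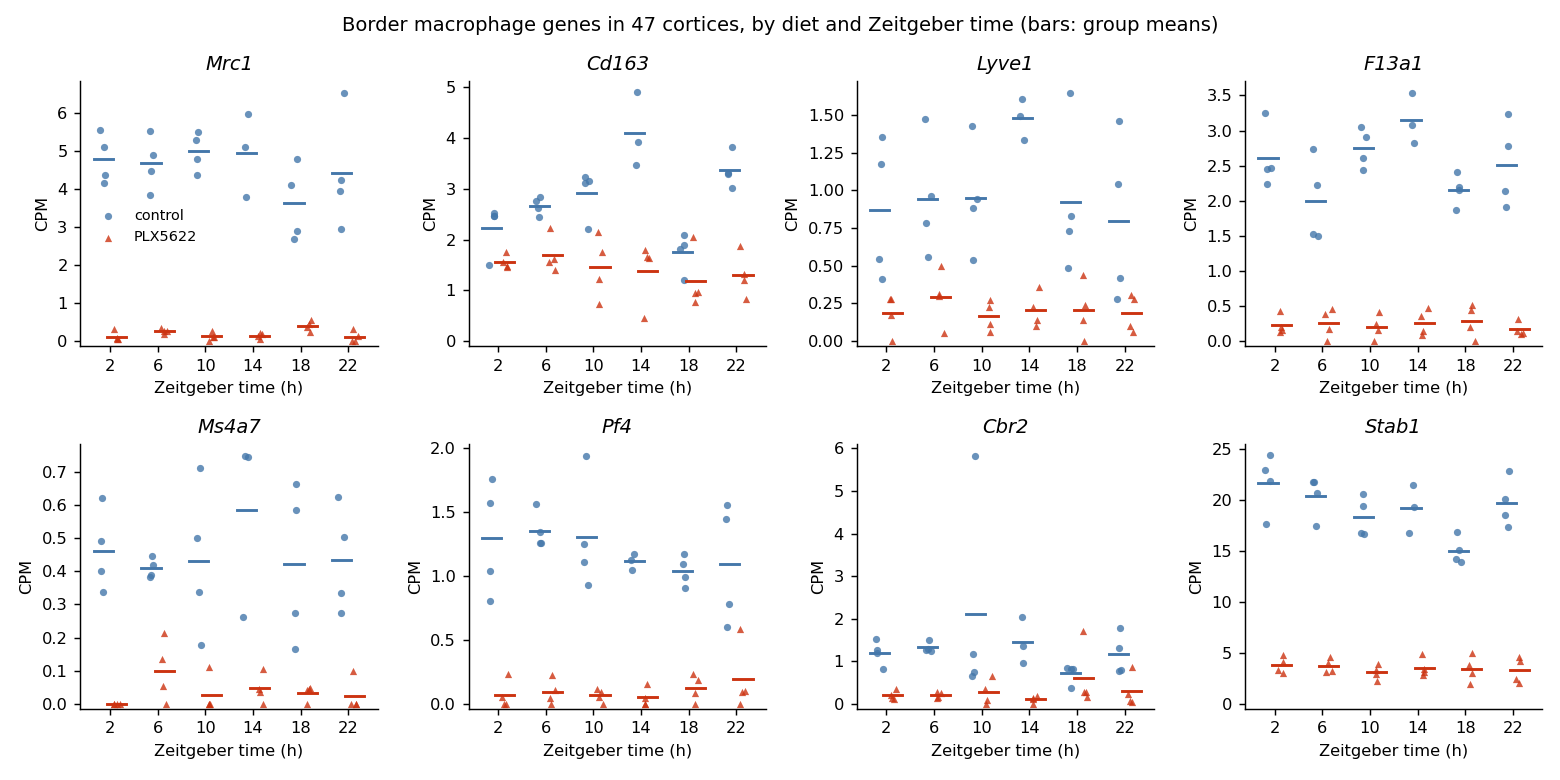
CPM of the 8 genes in each of the 47 mice, by Zeitgeber time (x axis, h), with control mice as blue circles, PLX5622 mice as red triangles and bars at the group means; each panel has its own linear axis. The PLX5622 mice lie near 0 for Mrc1, F13a1, Ms4a7 and Pf4, between 1.90 and 4.97 CPM for Stab1, and close to the control mice at several times for Cd163.

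Mrc1 encodes the mannose receptor CD206, a lectin that takes up glycoproteins. Its counts in control mice were 53 at the lowest, 87 at the median and 125 at the highest, and in PLX5622 mice 0, 4 and 12. In CPM these were 2.68, 4.47 and 6.51 in control mice against 0, 0.182 and 0.559. The groups were far apart, and 3 of the 24 PLX5622 libraries held no read of the gene. Of the control mean 4.32% was left (jackknife standard error 0.695), a log2 difference of -4.47 (standard error 0.15, adjusted p = 1.53e-46).

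Stab1 encodes stabilin-1, a scavenger receptor, and was the member with most reads. Its CPM was 13.9, 19.3 and 24.4 (lowest, median and highest) in control mice and 1.90, 3.29 and 4.97 in PLX5622 mice. The lowest control mouse was thus above the highest PLX5622 mouse by a wide margin. The gene kept 18.3% of the control mean (jackknife standard error 1.13), and edgeR gave a log2 difference of -2.44 (standard error 0.07, adjusted p = 9.67e-49). This was the smallest relative error of the 8 genes.

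Lyve1 encodes a hyaluronan receptor that lymphatic endothelium carries as well. Its counts ran from 5 over 17 to 37 in control mice and from 0 over 5 to 11 in PLX5622 mice. In 15 of the 24 PLX5622 mice its CPM was below that of every control mouse, and in all 24 it was below the control median. Of the control mean 21.3% was left (jackknife standard error 3.44), a log2 difference of -2.17 (standard error 0.21, adjusted p = 8.77e-15). Of the lymphatic endothelium list (Prox1, Pdpn, Flt4 and Ccl21a), 0 of the 3 genes tested with edgeR were called. At an unadjusted p under 0.05 there were 2, Prox1 with a log2 fold change of 0.17 and Pdpn with 0.13, both higher in PLX5622 mice, and Ccl21a had no read in any library. The summed level of that list was 29.2 to 44.9 CPM in control and 31.3 to 48.6 CPM in PLX5622 mice.

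Cd163 encodes the scavenger receptor for complexes of haemoglobin and haptoglobin. Its CPM was 1.20, 2.76 and 4.90 in control mice and 0.459, 1.51 and 2.23 in PLX5622 mice. All 24 PLX5622 mice were below the control median, but only 6 were below every control mouse, so the groups overlapped. The gene kept 51.5% of the control mean (jackknife standard error 4.72), and edgeR gave a log2 difference of -0.99 (standard error 0.12, adjusted p = 7.04e-11). The deposited TPM values gave a larger loss. There Cd163 was at 0.587 ± 0.234 TPM (SD, n = 23) in control and 0.159 ± 0.0663 TPM (SD, n = 24) in PLX5622 mice, and 27.1% remained (jackknife standard error 3.24), with no overlap of the groups. The tables thus differed for this gene, with 4.74 CPM per TPM in control and 9.01 in PLX5622 mice, where Mrc1 had 4.17 and 4.09. The cause was not tested.

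F13a1, which encodes the A subunit of coagulation factor XIII, was at 1.50, 2.46 and 3.53 CPM in control mice and at 0, 0.190 and 0.513 CPM in PLX5622 mice. The groups did not overlap. Of the control mean 9.35% was left (jackknife standard error 1.38), a log2 difference of -3.37 (standard error 0.16, adjusted p = 4.16e-35). Pf4 encodes platelet factor 4, the chemokine CXCL4. Its counts were 11, 22 and 38 in control and 0, 1.5 and 10 in PLX5622 mice, 8 of which had none. The gene kept 8.35% of the control mean (jackknife standard error 2.25), and edgeR gave a log2 difference of -3.59 (standard error 0.23, adjusted p = 1.15e-26).

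Platelets and their precursors hold both F13a1 and Pf4, so the list for megakaryocytes and platelets stands beside them. Of its 6 genes, 2 fell and 0 rose. Gp9, a chain of the platelet receptor of von Willebrand factor, changed by -3.27 on the log2 scale to 10.0% of its control level, and Itgb3, an integrin subunit, by -0.41. Itga2b and Gp1ba, further platelet receptor genes, changed by 0.23 (adjusted p = 0.263) and 0.06 (adjusted p = 0.903). The summed list was at 5.61 to 8.71 CPM in control and 4.41 to 8.60 CPM in PLX5622 mice, and its part in the values of F13a1 and Pf4 was not tested.

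Ms4a7 encodes a membrane protein of the MS4A family and had the fewest reads. Its counts were 3, 8 and 18 in control mice, while 13 of the 24 PLX5622 mice had none and the highest had 5. All but 1 of the 24 were below every control mouse. Of the control mean 8.54% was left (jackknife standard error 2.63), a log2 difference of -3.35 (standard error 0.32, adjusted p = 1.18e-16). Cbr2, which encodes carbonyl reductase 2, had counts of 7, 23 and 105 in control mice and 0, 4 and 39 in PLX5622 mice. The gene kept 21.5% of the control mean (jackknife standard error 6.96), and edgeR gave a log2 difference of -2.19 (standard error 0.25, adjusted p = 3.23e-11). It had the largest spread of the 8 genes in control mice, with an SD of 79.8% of the mean against 15.3% for Stab1 and 21.4% for Mrc1.

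A pair of libraries stood apart for Cbr2. The fourth control mouse at ZT10 had 105 counts (5.82 CPM, other control mice 0.383 to 2.04 CPM), and the third PLX5622 mouse at ZT18 had 39 counts (1.72 CPM, other PLX5622 mice 0 to 0.875 CPM). A list of 6 olfactory mucosa genes, chosen after the data were seen, was also high in the control mouse, with a sum of 100 CPM against 2.14 to 45.3 CPM in the other control mice. In the PLX5622 mouse the sum was 19.5 CPM, which ranked 3 of 24 (others 3.26 to 49.5 CPM). Cyp2a5, a cytochrome P450 of the nasal mucosa, was highest of its diet in both, at 19.3 and 5.99 CPM against medians of 0.207 and 0.233 CPM in the others. The part of such tissue in the Cbr2 values was not tested. Without both libraries 19.9% of Cbr2 remained (log2 fold change -2.36, standard error 0.21), and the other 7 genes stayed called, with 4.08% remaining for Mrc1 and 52.5% for Cd163.

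**Figure D2:**
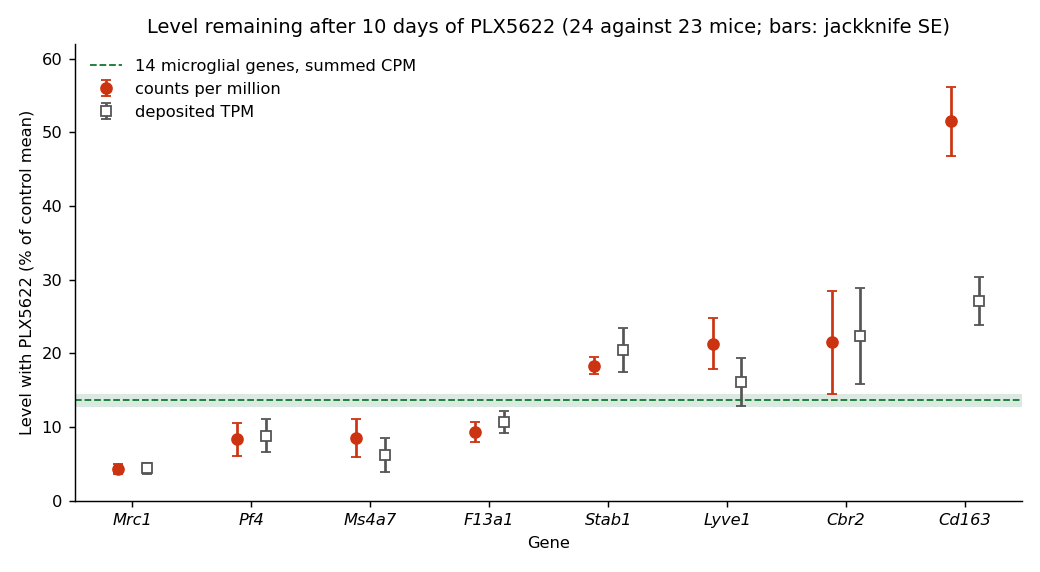
Mean level in 24 PLX5622 mice as a percentage of the mean in 23 control mice for each gene, from CPM (red circles) and from the deposited TPM (open squares), with jackknife standard errors as bars and the summed microglial list as a dashed green line with its standard error. Mrc1, Pf4, Ms4a7 and F13a1 lie below the microglial 13.6% and the other 4 genes above it, and Cd163 has 51.5% in CPM and 27.1% in TPM.

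Levels between genes were compared per length, in TPM. In control mice the order of the medians was Stab1 (4.85 TPM), Pf4 (4.81 TPM), Cbr2 (2.06 TPM), Mrc1 (1.08 TPM), F13a1 (0.812 TPM), Cd163 (0.568 TPM), Ms4a7 (0.555 TPM) and Lyve1 (0.470 TPM). Neighbours were within each other's spread at the top and at the bottom of this order. Stab1 was above Pf4 in 10 of 23 mice, Cd163 above Ms4a7 in 12 and Ms4a7 above Lyve1 in 11, whereas Pf4 was above Cbr2 in 22 and Mrc1 above F13a1 in 20. In PLX5622 mice the order was Stab1 (0.873 TPM), Cbr2 (0.373 TPM), Pf4 (0.274 TPM), Cd163 (0.158 TPM), Lyve1 (0.104 TPM), F13a1 (0.0772 TPM), Mrc1 (0.0395 TPM) and Ms4a7 (listed at 0). By these medians Mrc1 moved from the fourth place to the seventh, and Cd163, Lyve1 and Cbr2 moved up. Neighbours were often close here as well. Stab1 was above Cbr2 in 18 of 24 mice, Cbr2 above Pf4 in 14 and Pf4 above Cd163 in 15. Cd163 was above Lyve1 in 19, Lyve1 above F13a1 in 11, F13a1 above Mrc1 in 17 and Mrc1 above Ms4a7 in 15.

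Whether the genes lost different shares was tested pair by pair. For each of the 28 pairs the share of the first gene in the reads of both was taken in each mouse. Diets were permuted within Zeitgeber times (two-sided permutation test, 100000 draws, Benjamini-Hochberg over the 28 pairs). Mice with no read of either gene were left out, so 18 PLX5622 mice stood behind the pair of Ms4a7 and Pf4. The other pairs had 22 to 24. The shares differed between diets in 19 pairs. Mrc1 lost more than its partner in 5 of its 7 pairs, and its difference from Pf4 and Ms4a7 did not pass (adjusted p = 0.346 for both). These calls depended on the measure. With the reads pooled per diet the permutation adjusted p was 1.87e-05 for both. Permuted groups mix in control mice, which held 2018, 533 and 202 reads of Mrc1, Pf4 and Ms4a7. The PLX5622 mice held 102, 48 and 20. The pooled p-value therefore leaves out most of the error of these few reads and cannot decide the question. With the quasi-binomial model the adjusted p was 0.0417 for Pf4 and 0.0536 for Ms4a7. In TPM the mean share of Mrc1 beside Pf4 was 18.3% in control and 38.8% in PLX5622 mice (permutation adjusted p = 0.0406). That mean weighs each mouse equally, and 8 PLX5622 mice had Pf4 at 0 TPM. The mean TPM itself fell more for Mrc1, with 4.41% remaining against 8.82% for Pf4. Cd163 lost less than its partner in all 7 pairs. In the reads of Mrc1 and Cd163, Mrc1 took 62.3% ± 8.03 (SD, n = 23) in control and 12.2% ± 8.80 (SD, n = 24) in PLX5622 mice. By permutation this difference of -50.1 percentage points had p = 1e-05, the smallest that 100000 draws can give.

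For several genes no difference was called. Among Pf4, Ms4a7 and F13a1 the adjusted p ranged from 0.452 to 0.881, and among Stab1, Lyve1 and Cbr2 from 0.349 to 0.645, which does not show that they lost equal shares. Each of Pf4, Ms4a7 and F13a1 lost more than each of Stab1, Lyve1 and Cbr2, except for the pair of Ms4a7 and Cbr2. That pair did not pass by permutation (adjusted p = 0.103). The quasi-binomial model gave an adjusted p of 0.0219. Permutation of pooled reads gave 0.0187, with the limit named above for pooled reads. In the pair of F13a1 and Stab1, F13a1 took 11.7% ± 2.47 (SD, n = 23) in control and 6.57% ± 4.48 (SD, n = 24) in PLX5622 mice, with a permutation adjusted p of 9.33e-05. With shares of TPM in place of reads, 19 pairs were called again. The pairs called in both numbered 15, all in the same direction. The mean TPM share of F13a1 then rose beside Pf4 (permutation adjusted p = 0.00635) and Ms4a7 (0.0105). This mean weighs each mouse equally, and Pf4 was at 0 TPM in 8 PLX5622 mice and Ms4a7 in 16. Of the mean TPM 10.7% remained for F13a1, 8.82% for Pf4 and 6.26% for Ms4a7 (jackknife standard errors 1.48, 2.22 and 2.29). Cd163 differed from 5 of its 7 partners, with permutation adjusted p = 0.0544 against Lyve1 and 0.0742 against Cbr2.

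**Figure D3:**
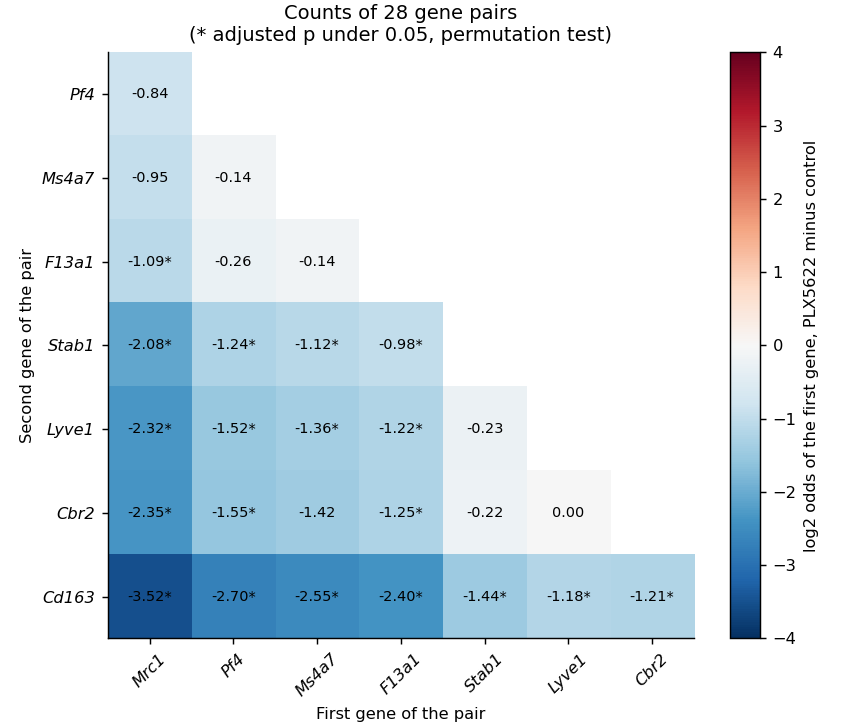
Log2 odds of the first gene (column) in the counts of a pair, PLX5622 minus control, from a quasi-binomial model with Zeitgeber time, for all 28 pairs, with genes ordered by the level remaining; an asterisk marks an adjusted p under 0.05 in the permutation test. The bottom line, Cd163, has all 7 pairs marked and reaches -3.52 against Mrc1, and 19 of the 28 pairs are marked.

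Microglia are the cells that the diet is known to remove, and a list of 14 of their genes gave a reference. All 14 were called lower, with a median log2 fold change of -3.47. Their summed level fell from 646.2 ± 50.8 CPM (SD, n = 23) to 88.0 ± 28.8 CPM (SD, n = 24), and 13.6% remained (jackknife standard error 0.935). Among those with the most reads, Csf1r kept 8.08%, C1qb, a complement subunit, 8.64% and C1qa 8.32%. Per 10000 reads of a member and this list together, Mrc1 took 70.2 ± 15.2 (SD, n = 23) in control and 21.8 ± 13.7 (SD, n = 24) in PLX5622 mice, 0.310 times as many (permutation test, adjusted over the 8 genes, p = 4e-05). Cd163 took 42.7 ± 12.3 and 177.4 ± 94.4, 4.15 times as many (permutation adjusted p = 4e-05). Both p-values come from the smallest value the draws can give.

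By the same test F13a1, Ms4a7 and Pf4 also lost more than the microglial list, with ratios of 0.722, 0.548 and 0.615 and adjusted p of 0.0368, 0.0207 and 0.0411. Lyve1 and Stab1 lost less, with ratios of 1.64 and 1.41 and adjusted p of 0.0207 and 5.33e-05. For Cbr2 the ratio was 1.85 and the difference did not pass (adjusted p = 0.112). In TPM the difference passed for 5 genes. F13a1, with a ratio of 1.02 (adjusted p = 0.927), Pf4 with 0.803 (adjusted p = 0.428) and Lyve1 with 1.59 (adjusted p = 0.0597) were then not called, and Cbr2 was called, with 2.36 (adjusted p = 0.0246).

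At single Zeitgeber times 4 mice of each diet were compared, with 3 in control ZT14. Mrc1, Stab1, F13a1 and Pf4 were called lower at all 6 times. The number of the 8 genes called lower was 7 at ZT2, 5 at ZT6, 8 at ZT10, 8 at ZT14, 6 at ZT18 and 6 at ZT22, where 0.966%, 0.678%, 0.853%, 0.742%, 0.651% and 0.801% of all genes were called lower. In 7, 8, 7, 8, 6 and 6 of them every PLX5622 mouse was below every control mouse of that time, against 1.83%, 2.03%, 2%, 1.92%, 1.32% and 2.37% of all genes. The calls of Lyve1, Ms4a7, Cbr2 and Cd163 at single times rested on few reads, and those that single libraries decided are listed at the end.

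**Figure D4:**
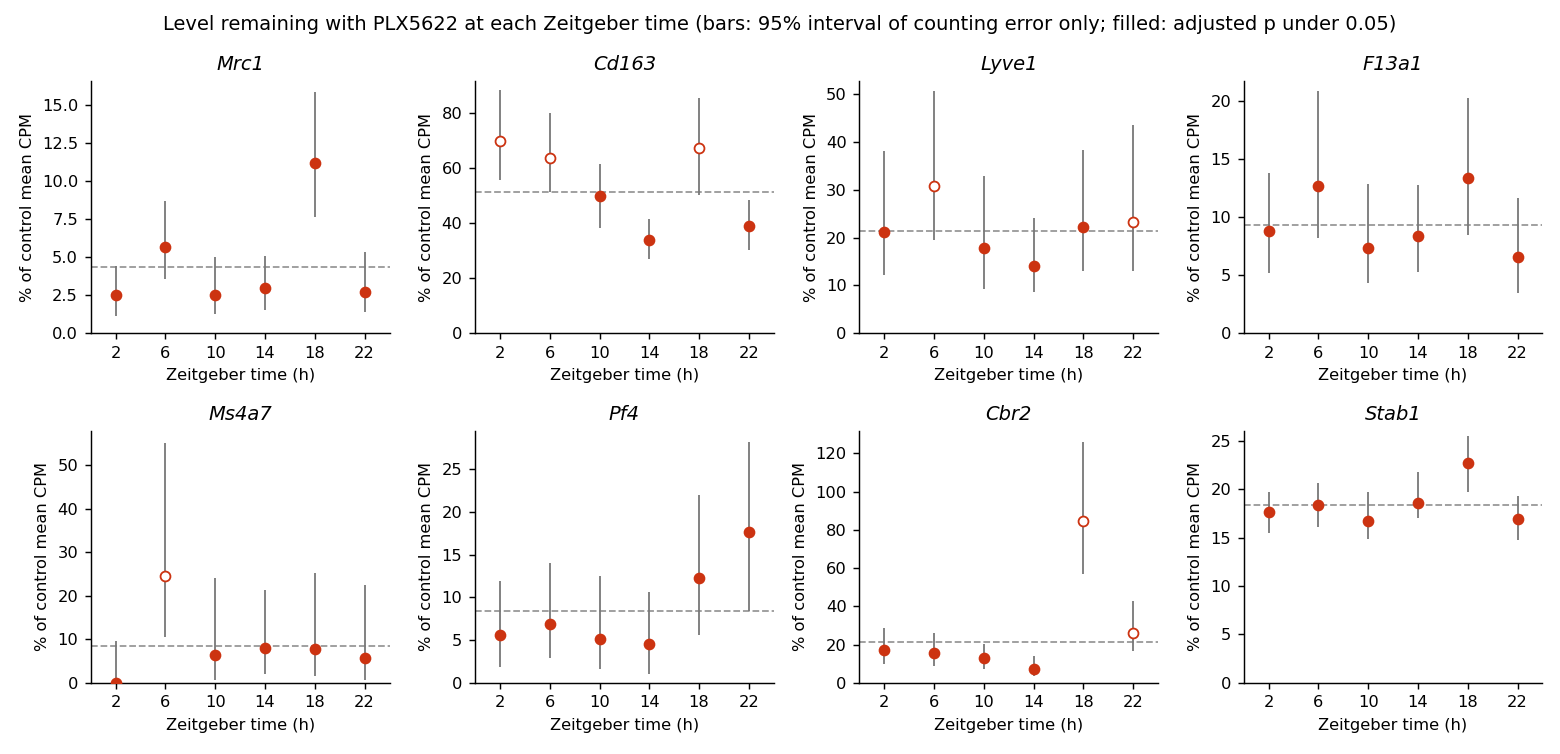
Level remaining with PLX5622 as a percentage of the control mean CPM at each Zeitgeber time (x axis, h), with a dashed line at the value over all times; bars are 95% exact binomial intervals that cover counting error only, and filled points passed an adjusted p of 0.05. Stab1 stays between 16.8% and 22.8%, Mrc1 rises to 11.2% at ZT18, and Cbr2 reaches 84.7% at ZT18, where the library with 39 counts lies.

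Mrc1 kept 2.54% at ZT2, 5.68% at ZT6, 2.53% at ZT10, 2.93% at ZT14, 11.2% at ZT18 and 2.68% at ZT22. At ZT18 the PLX5622 mice had 12, 6, 10 and 8 counts, and the control mice 55, 53, 68 and 87. The counting interval at ZT18, 7.64% to 15.8%, lay above those of the other times except ZT6, which reached 8.69%. The microglial list also kept most at ZT18, with 17.7%, and 10.8% to 16.5% at the other times. The edgeR test of equal diet effects at all times gave Mrc1 an unadjusted value of 0.00774 and an adjusted p of 0.865, so the difference between times was not called.

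Cd163 kept 69.9% at ZT2, 63.9% at ZT6, 50.1% at ZT10, 33.8% at ZT14, 67.4% at ZT18 and 38.9% at ZT22, and was called at ZT10, ZT14 and ZT22. In the deposited TPM the values at these times were lower, at 34.7%, 43.3%, 34.6%, 12.2%, 30.3% and 20.2%. Ms4a7 had no read in the 4 PLX5622 mice at ZT2 and 35 in the control mice, at least 13.6-fold lower at a floor of 3 counts over the group. At ZT6, where 9 reads remained, Ms4a7 kept 24.5% and was not called (adjusted p = 0.305). Lyve1 was not called at ZT6 (30.9% remaining, adjusted p = 0.127) and ZT22 (23.3%, adjusted p = 0.0752). Cbr2 was not called at ZT18, where 84.7% remained, and ZT22 (26.2%, adjusted p = 0.185). Without the pair of libraries high in Cbr2, it was not called at ZT10 either (adjusted p = 0.159) and was called at ZT22 (adjusted p = 0.0124), and Cd163 was not called at ZT10 (adjusted p = 0.0566).

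The test of equal diet effects at the 6 times called 0 of the 8 genes with edgeR, and 0.0645% of all genes. At an unadjusted p under 0.05 there were 3 (Mrc1, Cbr2 with 0.00762 and Cd163 with 0.0216), against 3.96% of all genes, and without the pair of libraries high in Cbr2 the value of Cbr2 was 0.149. The interaction of diet with the cosine and sine of time also called 0, against 0.0188% of all genes. Its unadjusted p was under 0.05 for Cbr2 (0.0151) and for 5.13% of all genes, and DESeq2 on counts and limma on TPM called 0 as well.

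Time of day within a diet was called for Cd163 in control mice and for no other member, where 1.5% of all genes were called. In the 3 control mice at ZT14 Cd163 was at 3.46, 4.90 and 3.91 CPM, and in the 4 at ZT22 at 3.83, 3.32, 3.02 and 3.28 CPM. In the 4 mice at ZT18 between them it was at 1.90, 1.81, 1.20 and 2.10 CPM, and at ZT2 at 1.50, 2.52, 2.46 and 2.46 CPM. The values at ZT18 lay below all of those at ZT14 and ZT22, so the level did not follow a smooth daily wave. The test between the 6 group means gave an adjusted p of 0.0125, and the test of a 24-h cosine 0.700. Without the third control mouse at ZT18 the adjusted p between group means was 0.0537, without the second at ZT14 it was 0.0565, and with the older form of the edgeR test it was 0.0760. In PLX5622 mice Cd163 lay between 1.18 and 1.70 CPM in the group means (adjusted p = 1).

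For the other 7 genes the adjusted p between group means was 0.295 or above in control mice and 0.372 or above in PLX5622 mice. Stab1 came closest in control mice, with 15.0 CPM at ZT18 and 18.4 to 21.7 CPM at the other times (unadjusted p = 0.0163, where 10.1% of all genes were under 0.05). In PLX5622 mice 0 of the 8 genes were called, where 1.64% of all genes were, and Mrc1 alone had an unadjusted p under 0.05 (0.0294). The 24-h cosine was called in 0 of the 8 genes in either diet, against 1.2% and 1.08% of all genes. Its unadjusted p was under 0.05 for Stab1 (0.0139) and Cbr2 (0.0368) in control mice and for none in PLX5622 mice.

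A second list held 16 other genes of border macrophages. Of these 14 fell and 0 rose, with a median log2 fold change of -1.998. By mean CPM its leading genes were Maf, a transcription factor of macrophages that other cells use as well (-0.47, 73.0% remaining), Colec12, a scavenger receptor (0.10, adjusted p = 0.553), Dab2, an endocytic adaptor (-0.30, 80.9% remaining), and Cd36, a fatty acid receptor (-0.22, adjusted p = 0.598). The sum of the list, which these genes carry, kept 78.8%. The lectin genes Cd209b, with 52 reads in control and 1 in PLX5622 libraries, and Cd209f, with 178 and 10, kept 1.70% and 4.45%, and were picked after their values were seen.

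**Figure D5:**
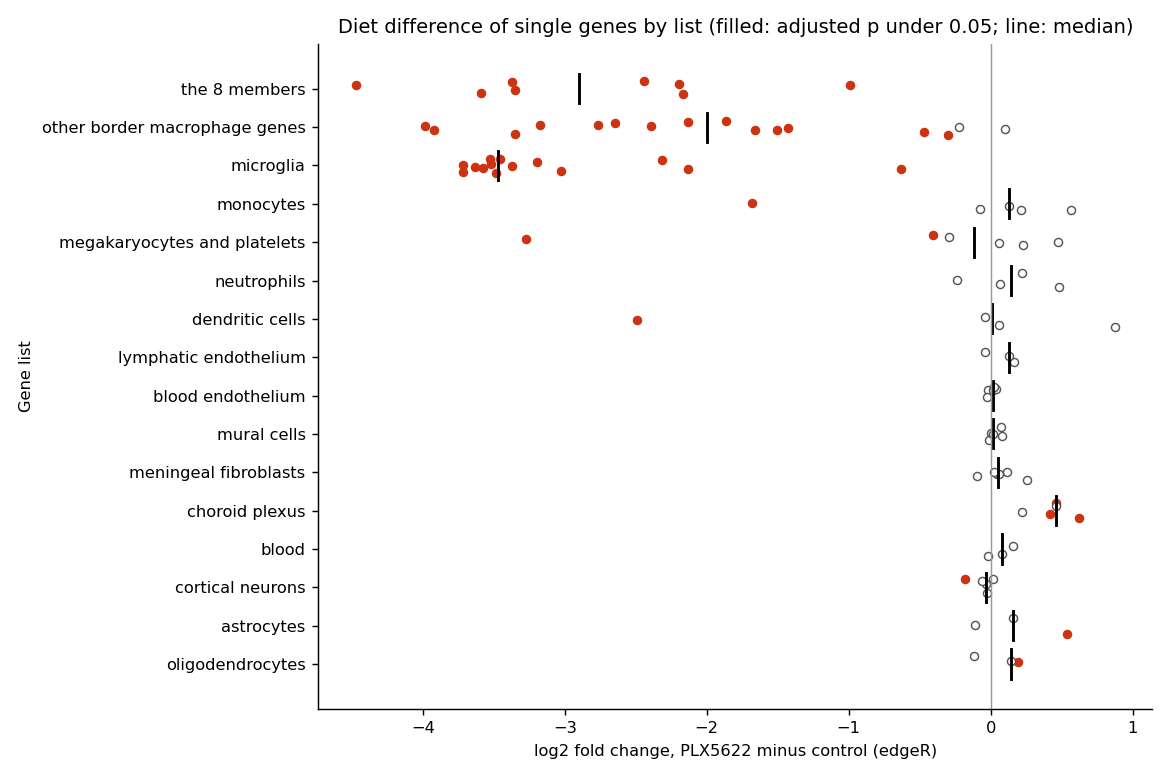
Log2 fold change of single genes, PLX5622 minus control, from edgeR (x axis) for the 8 genes and 15 other marker lists (y axis), with filled points for an adjusted p under 0.05 and a line at the median of each list. The 8 genes have a median of -2.90, the other border macrophage genes of -1.998 and the microglia of -3.47, and the medians of the other lists lie between -0.12 and 0.46.

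In lists of other cells few genes were called. Of 5 monocyte genes, Ccr2, a chemokine receptor, fell by 1.68 on the log2 scale, and Fn1, Chil3 and Plac8 changed by -0.07, 0.56 and 0.13 (adjusted p of 0.577 or above). Of 4 dendritic cell genes, Cd209a, a lectin that macrophages can carry as well, fell by 2.49, and Flt3, Ccr7 and Xcr1 changed by 0.06, 0.87 and -0.04 and were not called. None of the 4 neutrophil, 5 blood endothelium, 5 mural, 6 meningeal fibroblast and 3 blood genes was called by edgeR, and at an unadjusted p under 0.05 there was 1, the fibroblast gene Lum (0.26), picked after its value was seen. In the choroid plexus list 3 of 5 genes rose (Ttr by 0.62, Kl by 0.42 and Prlr by 0.46), and its sum was 57.9 to 959 CPM in control and 113 to 1015 CPM in PLX5622 mice. Single calls were made for Cux2 among 5 neuronal genes (-0.18) and Gfap among 3 astrocyte genes (0.54).

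Between mice of a group the 8 genes varied largely apart from each other. After subtraction of the 12 group means, Pearson's r of log2(CPM + 0.5) over the 47 libraries ranged from -0.38 to 0.34 in the 28 pairs, with a median of 0.088. All pairs were taken over the same libraries, and the part of counting error in these values was not tested. The genes most like Stab1 by this measure, among 14776 genes with a mean of at least 1 CPM, were Spi1, which encodes PU.1 (r = 0.673), Irf8, a transcription factor of myeloid cells (r = 0.653), and Trem2, a microglial receptor (r = 0.620). For Mrc1 they were Slc25a38 (0.653), Zbtb7c (0.610) and Hdac11 (0.593), for Cd163 Arg2 (0.669), Ngfr (0.612) and Cd68 (0.611), and for Lyve1 Vasn (0.630), Galnt11 (0.555) and Usp25 (0.547). For F13a1 they were Slc22a8 (0.650), Tnfaip1 (0.559) and Slc13a4 (0.515), and for Ms4a7 Particl (0.651), Rps19-ps6 (0.582) and Drc7 (0.568). For Pf4 they were Mpp6 (0.661), Rgl3 (0.654) and Hadha (0.650), and for Cbr2 Aldh1a3 (0.583), Sec14l3 (0.535) and Ogg1 (0.521). Each is among the 3 highest of 14776 values of r, and whether such values arise by selection alone was not tested.

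Within each diet the 8 genes were also correlated with the summed microglial and meningeal fibroblast lists over mice, which gave 32 relations. A single relation passed after adjustment over the 32, that of Stab1 with the microglial list in the 24 PLX5622 mice. Pearson's r was 0.627 (permutation within Zeitgeber times, adjusted p = 0.00544) and Spearman's rho 0.647 (permutation adjusted p = 0.00832), and r was 0.577 without the 2 mice farthest from the median of the list (permutation adjusted p = 0.0211). In the 23 control mice r of Stab1 with that list was -0.12 (permutation adjusted p = 0.828) and rho -0.14 (permutation adjusted p = 0.795). For the other 7 genes in PLX5622 mice r with the microglial list ranged from -0.29 (Cbr2) to 0.39 (Ms4a7), with permutation adjusted p of 0.464 or above.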

How the data were processed

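Total RNA of 47 mouse cortices was sequenced, 1 library per mouse. The deposited table whose name says FPKM holds whole-number counts per gene, with mm10 as build per the labels. The submitters' processing notes name STAR, featureCounts, edgeR and limma, without saying which of them made this table, and the strand setting is not given in the sources used here. The second deposited table holds TPM values, which the authors estimated with Salmon and the GENCODE annotation after mapping with STAR to GRCm38.p6. TPM keeps no depth, and short or shared transcripts can be assigned differently from counted reads.

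The 8 genes, the marker lists and the tests were chosen with earlier results of these data known, and the olfactory mucosa list was added after the values were seen. Named were all 8 members, up to 4 genes of each list with the highest mean CPM, and the 3 genes most correlated with each member; some genes of these lists are not reported here. Counts were tested in R 4.3.3 with the edgeR 4.0.16 quasi-likelihood test and TMM factors, over all 37182 genes with at least 1 count, with diet and the cosine and sine of Zeitgeber time at 24 h as terms. Single times were tested in a fit of 12 group means. Time of day was tested between the 6 group means and with a 24-h cosine and sine. Level remaining is the mean CPM of PLX5622 over that of control mice. Pairs of genes and the microglial list were compared by two-sided permutation within Zeitgeber times (100000 draws). Intervals and floors (3 counts over a group) cover counting error only. Promoters were read from RefSeq (GRCm38.p6).

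Alternatives were DESeq2 1.42.0, limma 3.58.1 on log2(TPM + 1) and log2(TPM + 0.1), other size factors, filterByExpr, the older edgeR test, the replicate number as a block, and leaving out each library in turn with the dispersions of all 47. On simulated counts of 36038 genes with 200 changed by 1 on the log2 scale, the diet test recovered 97% with 7.62% of calls false, and the interaction test 86.5% with 7.49% false. No 2 libraries of a group were alike within counting noise (smallest chi-square per degree of freedom 3.80 over 69 pairs). Library totals were 16597987 to 27626161 counts, so genes of few reads have wide errors.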

Additional observations from a re-analysis of the deposited data

Results flagged for a closer look

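In 13 of 88 groups of 4 mice, 1 mouse stood apart from the other 3 by Dixon's test at 95%, where chance gives about 1 in 20, or 4.4. All values here are CPM, and many rest on a few reads.

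Cbr2 was at 5.82 in the fourth control mouse at ZT10 (others 0.655 to 1.17) and at 1.72 in the third PLX5622 mouse at ZT18 (others 0.162 to 0.282). It was also at 0.383 in the second control mouse at ZT18 (others 0.828 to 0.843) and at 1.51 in the fourth at ZT6 (others 1.25 to 1.28). Cd163 was low in the first control mouse at ZT2 (1.50, others 2.46 to 2.52), the first control mouse at ZT10 (2.20, others 3.10 to 3.24) and, at ZT14, the fourth PLX5622 mouse (0.459, against 1.63 to 1.79). It was high in the first PLX5622 mouse at ZT18 (2.05, others 0.767 to 0.969). Mrc1 was high in the first PLX5622 mouse at ZT2 (0.315, others 0.0437 to 0.0803), and Pf4 in the second PLX5622 mouse at ZT22 (0.583, others 0 to 0.0985). Ms4a7 was at 0.110 in the first PLX5622 mouse at ZT10 and 0.0985 in the third at ZT22, with none in the others, and at 0 in the fourth at ZT18 (others 0.0404 to 0.0466).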

How the results depend on the processing

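All 8 genes stayed called lower over all times under every alternative run and without any single library. The older edgeR test called 0 of the 8 genes for time of day in control mice in place of 1, and leaving out single libraries gave 0 to 1. The share of Cd163 lost was 72.9% in the deposited TPM against 48.5% in CPM. Leaving out single libraries gave 5 to 7 called genes at ZT2, 4 to 5 at ZT6, 5 to 8 at ZT10 (5 without the second control or the third PLX5622 mouse), 8 at ZT14, 4 to 6 at ZT18 and 6 to 7 at ZT22. The log2 difference of Cbr2 at ZT18 ran from -1.62 without the third PLX5622 mouse to 0.074 (adjusted p = 1) without the second. Of 4664 values of single genes under an alternative, 4624 kept their direction and side of the threshold, 34 lost the call and 5 gained it. The causes were not tested.

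Calls at single times were lost without 1 mouse of that time as follows, with the edgeR adjusted p. Cd163 at ZT10 lost it without the second, the third or the fourth control mouse (0.0648, 0.112 and 0.0567) or the third or the fourth PLX5622 mouse (0.287 and 0.155). Lyve1 lost it at ZT2 without the second or the third control (0.0869 and 0.202) or the first or the third PLX5622 mouse (0.0626 and 0.0604), at ZT10 without the second control (0.0810) or the third PLX5622 mouse (0.0541), and at ZT18 without the second control (0.437) or the first or the fourth PLX5622 mouse (0.0907 and 0.154). Ms4a7 lost it at ZT10 without the second control (0.0911) or the third or the fourth PLX5622 mouse (0.0568 and 0.0772), and at ZT18 without the first or the third control (0.0758 and 0.0809) or the fourth PLX5622 mouse (0.0549). Cbr2 lost it at ZT2 without the second or the third control (0.0657 and 0.0517) or the second or the fourth PLX5622 mouse (0.0581 and 0.0875), at ZT6 without the third PLX5622 mouse (0.0584) and at ZT10 without the fourth control mouse (0.304). At ZT22 calls were gained by Lyve1 without the first or the second control mouse (0.0226 and 0.0359) and by Cbr2 without the fourth PLX5622 mouse (0.0175) or the fourth control mouse at ZT10 (0.0419).

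The deviations of same-numbered mice from their group means had a median r of 0.104 over 253 pairs, against -0.04 for other numbers, and 129 of the 253 were above 0.1. Of the 47 libraries, 25 correlated best with their own number, which is a hint from the data, not the design. As not every pair was above 0.1 (lowest -0.53) and the labels give the number no meaning, it was not taken as a pairing. With the replicate block the counts of called members were as without it, 8 over all times, 7, 5, 8, 8, 6 and 6 at the single times and 1 for time in control mice. Over all genes the block moved the calls for time in control mice from 558 to 1509, in PLX5622 mice from 609 to 1066, and for the cosine in control mice from 447 to 964. The interaction was called for 7 genes, 17 with the older edgeR test, 2 with the block and 0 with filterByExpr, DESeq2 or limma, and unequal effects for 24, 79 with the older test and 0 with filterByExpr. For diet limma on log2(TPM + 0.1) called 682 genes against 1088.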
